A study of Danio rerio with 18 samples.

Results

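The cadherin superfamily was followed across zebrafish lateral line primordium samples treated to lower or raise FGF signalling. Its members were taken by gene symbol: those that start with cdh, fat, dchs or celsr followed by a digit, or with pcdh. This gave 81 of 19260 genes that the array's probe table names with a single symbol. A gene with several probe sets was represented by the brightest of them on average. RNA was measured on 18 Affymetrix arrays, 6 in each of 3 groups, and all values are deposited log2 signals. SU5402 embryos bore 2 reporter transgenes, cxcr4b:nls-tdTomato and cldnb:lynGFP, and were given SU5402, an inhibitor of FGF receptor activity, at 1 µM together with RU486 at 10 µM and DMSO at 0.1%. FGF overexpression embryos had these reporters and in addition cxcr4b:LexPR, a driver that RU486 switches on in cells that use the cxcr4b promoter, and lexOP:Fgf3-GFP, and received DMSO and RU486 at the same doses. Control embryos had the reporters and received DMSO and RU486, although their label calls them untreated. Embryos were under 3 days old. All groups carried the reporters and received RU486, and the effect of Fgf3 cannot be told apart from that of the extra transgenes.

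Cadherins are membrane proteins whose extracellular repeats, stiffened by calcium, bind cadherins of neighbouring cells. Classical cadherins such as E-cadherin and N-cadherin hold epithelia together through catenins and actin. Protocadherins mostly adhere weakly and are best known from the nervous system. The giant Fat and Dachsous proteins and the Celsr proteins, relatives of Flamingo in Drosophila, take part in planar cell polarity, the alignment of cells within an epithelial sheet. In the primordium, a cluster of cells that migrates along the flank and deposits sensory organs, FGF signalling is known to organise cells into rosettes, and both E-cadherin and N-cadherin are present.

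Array medians lay between 5.89 and 5.99, and arrays of the same group correlated at 0.967 to 0.983 over all probe sets. Markers that define the primordium were present: in control samples cldnb averaged 11.90, epcam 11.88, eya1 11.81, cxcr4b 10.65, hmx3a 10.55 and hmx2 10.01, and none of these 6 passed in either treatment. The other 4 measured primordium markers passed in both. Under SU5402 and FGF overexpression lef1 was at 1.52 and -1.39, fgf10a at 1.56 and -1.55, ackr3b at -1.72 and -0.84, and prox1a at 0.62 and 0.33. The mean of all 10 was 10.70 to 10.87 in SU5402, 10.16 to 10.36 in FGF overexpression and 10.23 to 10.75 in control, and its part in the changes of the cadherin genes below was not tested. Other cell types were present as well, since the mean of 16 skeletal muscle markers lay between 9.91 and 10.62 on control arrays and that of 14 skin and periderm markers between 9.45 and 10.03. Lower RNA of a gene in such samples can mean fewer cells of a type or less RNA per cell, which cannot be told apart. Nothing in the labels says that replicates came from separate clutches, so p-values measure the spread between these samples.

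By mean signal, 33 of the 81 genes lay above the median of all probe sets, 5.92, and 48 lay at or below it. This mean runs over all 18 arrays, so a gene could count as brighter through a group in which it was high. Shares among the brighter genes below are therefore descriptive. The clustered protocadherins made up most of the dim genes, with 26 of 28 at or below the median. In contrast, 14 of 18 non-clustered protocadherins, 3 of 4 Celsr genes and 3 of 4 type I classical cadherins were above it. Where the mean of the group with less RNA did not exceed this median, the fold change is a bound and carries "at least". The test was limma's moderated test over all 75212 probe sets, two-sided, with Benjamini-Hochberg adjustment and a threshold of 0.05, and "rose" and "fell" below refer to it.

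**Figure D1:**
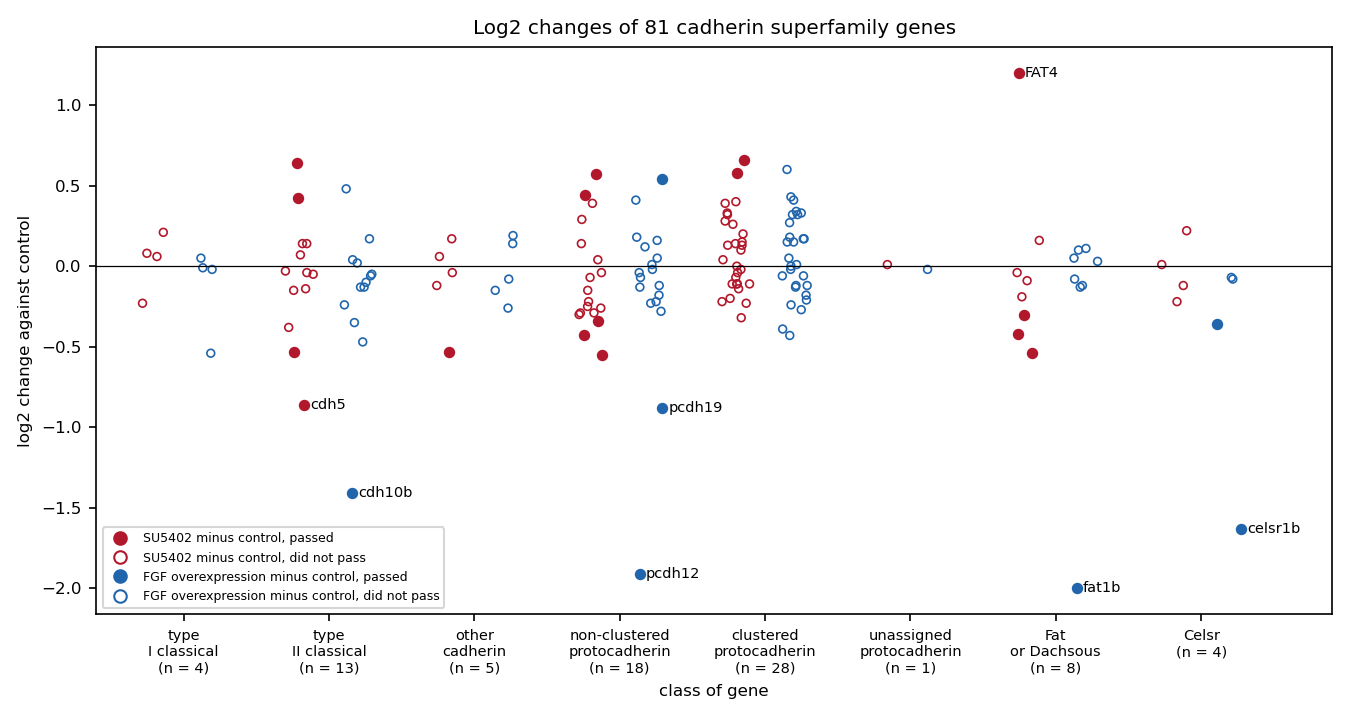
Log2 change against control (vertical axis) of each of the 81 genes, arranged by class (horizontal axis), for SU5402 (red) and FGF overexpression (blue). Filled points passed the test and open points did not; the labelled points lie at least 0.8 from 0, with fat1b lowest at -2.00 and FAT4 highest at 1.20.

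FGF overexpression lowered 6 cadherin superfamily genes and raised 1. The falls were led by the giant cadherin gene fat1b (4.01-fold), the protocadherin gene pcdh12 (3.75-fold) and the planar polarity gene celsr1b (3.10-fold). Then came cdh10b, which fell at least 2.65-fold, pcdh19 (1.84-fold) and celsr2 (1.28-fold). The gene that rose was pcdh17, by 1.45-fold. The 7 genes are 8.64% of the 81, against 5.89% of all named genes called in this comparison, where 3.41% were higher and 2.48% lower. All 7 were among the 33 brighter members, of which they made up 21.2%, against 7.74% of named genes above the same median. FGF overexpression and control did not overlap for 7 of the 81 (8.64%), against 5.02% of named genes. The median log2 change over all 81 was -0.05, and over all named genes it was -0.01.

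The Fat1-like gene fat1b had signals of 7.01 to 7.54 (median 7.32) in FGF overexpression, 8.66 to 9.01 (median 8.71) in SU5402 and 8.97 to 9.49 (median 9.33) in control. FGF overexpression arrays were thus below every other array. The log2 change was -2.00 against control (SE 0.11, adjusted p = 2.03e-09) and -1.47 against SU5402 (SE 0.11, adjusted p = 1.32e-08). Fat1 in mammals is known to shape actin at cell edges and cell contacts.

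For pcdh12, whose mammalian counterpart is known from endothelium, signals were 7.79 to 8.38 (median 8.10) in FGF overexpression, 9.47 to 9.98 (median 9.69) in SU5402 and 9.65 to 10.37 (median 10.03) in control. The FGF overexpression arrays again did not overlap with either group. Its log2 change was -1.91 against control (SE 0.13, adjusted p = 2.22e-08), and under SU5402 it was -0.30, which did not pass (adjusted p = 0.172). Of 12 endothelium markers, 2 rose and 1 fell under FGF overexpression, where 5.89% of all named genes were called. The mean of the 11 markers that are not cadherins was 6.09 to 6.34 in FGF overexpression, 5.67 to 5.93 in SU5402 and 6.13 to 6.42 in control. Their part in the fall of pcdh12 was not tested.

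Of the Celsr genes, celsr1b had signals of 7.80 to 7.97 (median 7.84) in FGF overexpression, 9.21 to 9.66 (median 9.34) in SU5402 and 9.24 to 9.69 (median 9.55) in control. The 6 FGF overexpression values lay closer together than those of the other groups, with an SD of 0.06 against 0.18 in control. The log2 change was -1.63 (SE 0.09, adjusted p = 1.94e-09). For celsr2, needed in zebrafish for the migration of facial motor neurons, the signals were 7.88 to 8.22 in FGF overexpression (median 8.07), 8.56 to 8.71 in SU5402 (median 8.62) and 8.30 to 8.54 in control (median 8.40). None of these 3 ranges overlapped. It fell by 0.36 under FGF overexpression (log2, SE 0.07, adjusted p = 0.00479), and its change of 0.22 under SU5402 did not pass (adjusted p = 0.0675), although it did with a trended and robust variance (adjusted p = 0.0449) and among brighter probe sets alone (adjusted p = 0.0277). The other Celsr genes did not pass in either treatment. For celsr1a the signals were 9.42 to 9.60 in FGF overexpression (median 9.57), 9.28 to 9.64 in SU5402 (median 9.35) and 9.52 to 9.79 in control (median 9.59). They overlapped, and the log2 change was -0.07 under FGF overexpression (adjusted p = 0.684) and -0.22 under SU5402 (adjusted p = 0.0711); under SU5402 it passed in 4 of 20 alternative fits, one of them without SU5402 replicate 4 (adjusted p = 0.0186). The dim celsr3 was at -0.08 under FGF overexpression and 0.01 under SU5402.

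The type II classical cadherin gene cdh10b had signals of 5.48 to 6.20 (median 5.89) in FGF overexpression, 6.45 to 7.32 (median 6.92) in SU5402 and 7.01 to 7.69 (median 7.29) in control. Its FGF overexpression mean of 5.89 was below the median of all probe sets, so the log2 change of -1.41 (SE 0.15, adjusted p = 5.56e-06) is a lower bound in size. Under SU5402 the change of -0.38 did not pass (adjusted p = 0.12).

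The gene pcdh19 passed in both treatments and in opposite directions. Its protein acts with N-cadherin in the neural plate of zebrafish. Its signals were 8.68 to 8.91 (median 8.72) in SU5402, 7.11 to 7.86 (median 7.45) in FGF overexpression and 8.18 to 8.42 (median 8.34) in control. The 3 ranges did not overlap, with SU5402 highest and FGF overexpression lowest. It rose 1.36-fold under SU5402 (log2 change 0.44, SE 0.10, adjusted p = 0.00984) and fell 1.84-fold under FGF overexpression (-0.88 on the log2 scale, SE 0.10, adjusted p = 2.72e-05), and both comparisons use the same control arrays. Set directly against SU5402, FGF overexpression was 2.50-fold lower (log2 change -1.32, SE 0.10, adjusted p = 2.51e-08).

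The protocadherin gene pcdh17 had signals of 7.15 to 7.57 (median 7.24) in FGF overexpression, 6.53 to 6.80 (median 6.70) in SU5402 and 6.62 to 7.01 (median 6.74) in control. All FGF overexpression arrays were above all others. The log2 change was 0.54 against control (SE 0.09, adjusted p = 0.000689) and 0.61 against SU5402 (SE 0.09, adjusted p = 4.52e-05).

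**Figure D2:**
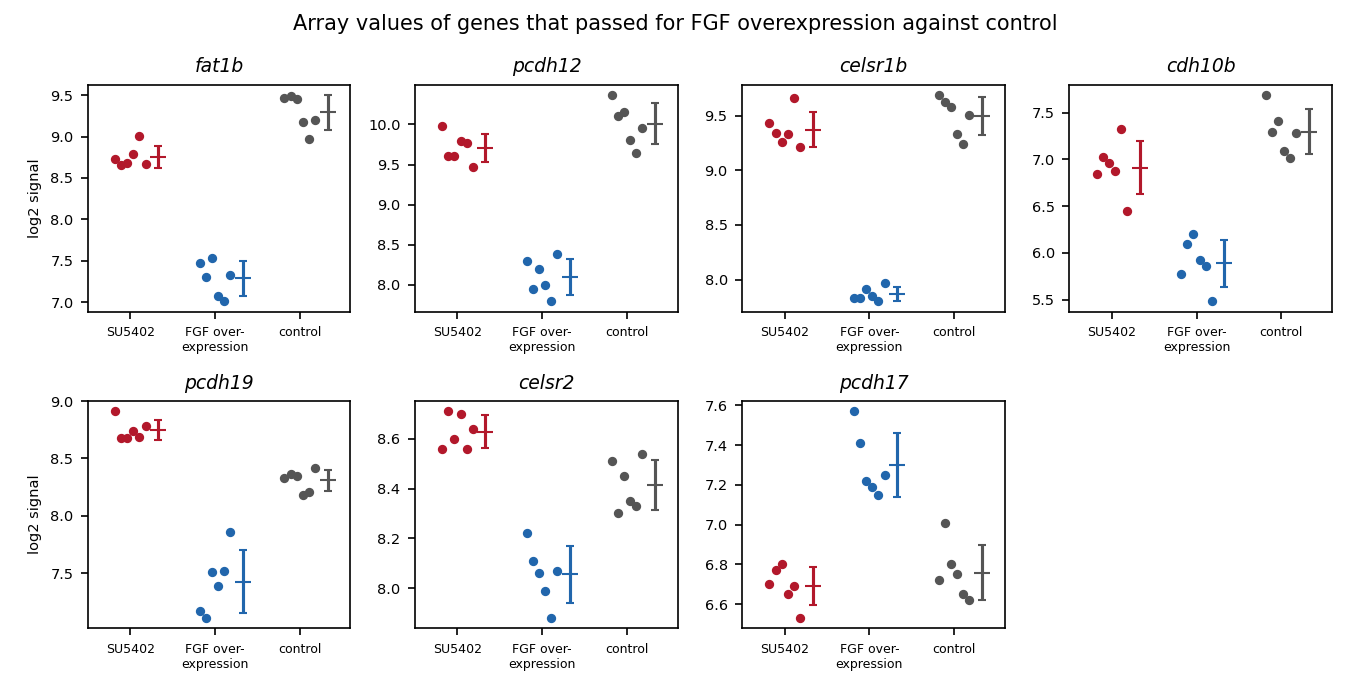
Log2 signal (vertical axes) on each array for the 7 genes that passed for FGF overexpression against control, with SU5402, FGF overexpression and control from left to right and the mean ± SD (n = 6) beside each group. The FGF overexpression arrays lie below all control arrays for fat1b, pcdh12, celsr1b, cdh10b, pcdh19 and celsr2, and above them for pcdh17.

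The genes near these 7 on the chromosomes were also read, an addition made after values were seen. Their order was taken from the RefSeq table of the assembly GRCz12tu. The part of the extra transgenes in the changes of the 7 genes was not tested. Of the 70 nearest measured genes, 5 on each side of each member, 1 was called higher and 2 lower. Among all named genes 5.89% were called in this comparison. The log2 changes of the 70 ranged from -0.63 to 0.67. No neighbour of pcdh12, celsr1b, cdh10b or pcdh19 was called. Among the neighbours of fat1b, pdlim3b was lower (-0.50, adjusted p = 0.0208), and among those of celsr2, bysl was lower (-0.26, adjusted p = 0.0349). Among those of pcdh17, sipa1l2 was higher, by slightly more than pcdh17 itself (0.67, adjusted p = 4.81e-04). None of these genes lay directly beside its member, and the measured genes in between were not called.

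SU5402 raised 7 cadherin superfamily genes and lowered 9, and 4 of the 16 fitted changes, those of FAT4, cdh5, pcdh2g29 and cdh11, exceeded 1.5-fold. The rises were led by FAT4 (2.30-fold), then pcdh2g29, cdh11, pcdh2g28, pcdh18b, pcdh19 and cdh18a. The falls were led by cdh5, which fell at least 1.81-fold, then pcdh11, fat1b, cdh7a, CDH16, pcdh1b, FAT3, pcdh10b and fat1a. The 16 genes are 19.8% of the 81, against 14.7% of all named genes called in this comparison, 6.57% higher and 8.13% lower. Of the 33 brighter members 15 were called, or 45.5%, against 19.3% of the brighter named genes. Among the 15, pcdh2g29 was above the median only in SU5402 (mean 6.48, against 5.88 in FGF overexpression and 5.83 in control). For 12 of the 81 genes (14.8%) the groups did not overlap, against 9.76% of named genes. These counts take pcdh2g28 and pcdh2g29 as separate genes, although their probe sets are not independent readings, as described below. The median log2 change over all 81 was -0.04, and over all named genes it was 0.01.

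The giant cadherin gene FAT4, whose mammalian counterpart binds Dachsous, had signals of 7.10 to 7.42 (median 7.19) in SU5402, 5.15 to 6.26 (median 6.01) in FGF overexpression and 5.53 to 6.50 (median 6.01) in control. SU5402 arrays were above all others. Its log2 change was 1.20 (SE 0.18, adjusted p = 0.000161), and under FGF overexpression it was -0.12 (adjusted p = 0.804). The probe table gives no gene ID for FAT4, FAT3 or CDH16, so these names are those of the array design alone.

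Of the 8 Fat and Dachsous genes, FAT4 rose and 3 Fat genes fell under SU5402, where 14.7% of all named genes were called. For fat1a the signals were 9.24 to 9.52 (median 9.39) in SU5402, 9.49 to 9.61 (median 9.56) in FGF overexpression and 9.53 to 9.81 (median 9.69) in control. The SU5402 and control ranges nearly touched but did not overlap, and the log2 change was -0.30 (SE 0.07, adjusted p = 0.00522). The fall of fat1b under SU5402, by 0.54 (log2, SE 0.11, adjusted p = 0.00333), was smaller than under FGF overexpression, and its SU5402 and control ranges overlapped. FAT3 had 6.94 to 7.45 in SU5402 (median 7.11), 7.37 to 7.80 in FGF overexpression (median 7.60) and 7.39 to 7.80 in control (median 7.57), a log2 change of -0.42 (SE 0.10, adjusted p = 0.00768) with overlap at the edge. The remaining genes of this class, fat2, fat3a, dchs1b and dchs2, were dim and none passed, with log2 changes of -0.19 to 0.16 under SU5402 and -0.08 to 0.11 under FGF overexpression.

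The non-clustered protocadherins went both ways under SU5402, with 2 of 18 higher and 3 lower. That is 27.8% called, against 14.7% of all named genes. Protocadherin 18b is known in zebrafish for its part in motor axon growth, and pcdh18b had 7.58 to 8.05 in SU5402 (median 7.81), 7.00 to 7.52 in FGF overexpression (median 7.28) and 6.99 to 7.34 in control (median 7.28). SU5402 arrays lay above both groups (log2 change 0.57, SE 0.10, adjusted p = 0.000817). For pcdh11 the signals were 5.70 to 6.19 in SU5402 (median 6.16), 6.03 to 6.51 in FGF overexpression (median 6.36) and 6.48 to 6.81 in control (median 6.59), a fall of 0.55 without overlap (SE 0.10, adjusted p = 0.000944). The axon growth gene pcdh10b fell by 0.34 (SE 0.09, adjusted p = 0.0201), with 6.13 to 6.40 in SU5402 (median 6.24), 5.99 to 6.56 in FGF overexpression (median 6.42) and 6.47 to 6.77 in control (median 6.56). Without control replicate 3 its adjusted p was 0.0543. The call for pcdh1b rested on overlapping groups (-0.43, SE 0.13, adjusted p = 0.0459), at 8.07 to 8.82 in SU5402 (median 8.30), 8.69 to 8.92 in FGF overexpression (median 8.89) and 8.48 to 9.28 in control (median 8.74). A fit of these 2 groups without FGF overexpression did not keep the call (adjusted p = 0.116).

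Tested against control, there was no call in either treatment for the other non-clustered protocadherins, pcdh1a, pcdh7a, pcdh7b, pcdh8, pcdh9, pcdh10a, pcdh15a, pcdh15b, pcdh18a, pcdh20 and pcdh20l. In FGF overexpression set directly against SU5402, pcdh7a was higher (0.47, SE 0.11, adjusted p = 0.00489) and pcdh7b was lower (-0.42, SE 0.11, adjusted p = 0.00915).

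Among the 13 type II classical cadherins, 2 rose and 2 fell under SU5402, or 30.8%, against 14.7% of all named genes called. The mesenchymal cadherin gene cdh11 had 8.36 to 8.68 in SU5402 (median 8.45), 7.62 to 8.22 in FGF overexpression (median 7.83) and 7.37 to 8.24 in control (median 7.81). SU5402 arrays were above all others, with a log2 change of 0.64 (SE 0.14, adjusted p = 0.00546). Of 11 mesenchyme and cartilage markers none rose under SU5402 and 3 fell, where 8.13% of all named genes were lower. The markers had a median log2 change of -0.42, and their mean was 7.25 to 8.31 in SU5402, 7.50 to 8.28 in FGF overexpression and 7.43 to 8.63 in control. Their part in the rise of cdh11 was not tested. The dim gene cdh18a rose at least 1.34-fold (0.42, SE 0.10, adjusted p = 0.00639), with arrays at 5.69 to 6.19 in SU5402 (median 5.99), against 5.21 to 5.60 in FGF overexpression (median 5.47) and 5.33 to 5.65 in control (median 5.61). Its other probe set did not pass (0.19, adjusted p = 0.341).

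The endothelial cadherin gene cdh5, which encodes VE-cadherin, had 5.42 to 6.25 in SU5402 (median 5.85), 6.09 to 6.90 in FGF overexpression (median 6.29) and 6.38 to 7.44 in control (median 6.59). SU5402 and control did not overlap. The log2 change was -0.86 (SE 0.19, adjusted p = 0.00512) and its other probe set gave -0.99 (adjusted p = 0.0106). Both are lower bounds in size, since the SU5402 means, 5.85 and 5.29, were below the median of all probe sets. Endothelium markers fell beside it: 4 of 12, cdh5 included, were lower and none higher, where 8.13% of all named genes were lower. The mean of the 11 other markers was 5.67 to 5.93 in SU5402 against 6.13 to 6.42 in control. Their part in the fall of cdh5 was not tested. For cdh7a, known from neural crest in chick, the signals were 6.31 to 7.00 in SU5402 (median 6.67), 6.49 to 6.86 in FGF overexpression (median 6.72) and 6.82 to 7.58 in control (median 7.13). Both treatments overlapped with control. The log2 changes were -0.53 under SU5402 (SE 0.13, adjusted p = 0.0132) and -0.47 under FGF overexpression, where the adjusted p of 0.0533 lay just above the threshold and between 0.0223, without control replicate 1, and 0.0464 in 6 alternative fits. The other members, cdh6, cdh8, cdh10a, cdh12a, cdh19, cdh22, cdh24a and cdh24b, passed in neither treatment against control. FGF overexpression was higher than SU5402 for cdh6 (0.61, SE 0.19, adjusted p = 0.0362), a call that 6 of 20 alternative fits lost, 5 of them by leaving out a single array.

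The 28 clustered protocadherins, which give neurons their cell identity in mammals, were mostly below the median of all probe sets, and few passed. They were pcdh1a6, pcdh1g2, pcdh1g9, pcdh1g18, pcdh1g26, pcdh1g29, pcdh1gb2, pcdh1gb9 and pcdh1gc5 of one cluster, pcdh2aa1, pcdh2aa3, pcdh2aa15, pcdh2ab2, pcdh2ab3, pcdh2ab7, pcdh2ab9 and pcdh2ab10 of another, and pcdh2g1, pcdh2g3, pcdh2g5, pcdh2g7, pcdh2g8, pcdh2g9, pcdh2g12, pcdh2g13 and pcdh2g16 beside pcdh2g28 and pcdh2g29. None passed under FGF overexpression, where their log2 changes ranged from -0.43 to 0.60. A dimmer probe set did pass there, as higher, for pcdh2ab3 (adjusted p = 0.0107) and for pcdh2ab9 (adjusted p = 0.0456). These calls have no size, since both groups compared averaged below the median of all probe sets. Under SU5402 only pcdh2g28 and pcdh2g29 passed, 7.14% of the 28, against 14.7% of all named genes. Both averaged above the median of all probe sets, where 19.3% of named genes were called, while 26 of the 28 did not. The share of the class is therefore not read apart from its low signal. The signals of pcdh2g29 were 6.25 to 6.77 in SU5402 (median 6.49), 5.64 to 6.28 in FGF overexpression (median 5.84) and 5.56 to 6.09 in control (median 5.85). Those of pcdh2g28 were 6.20 to 6.62 in SU5402 (median 6.45), 5.75 to 6.56 in FGF overexpression (median 6.29) and 5.44 to 6.13 in control (median 5.90). SU5402 did not overlap with control for either gene, and the log2 changes were 0.66 for pcdh2g29 (SE 0.13, adjusted p = 0.00155), at least 1.58-fold, and 0.58 for pcdh2g28 (SE 0.14, adjusted p = 0.0121), at least 1.50-fold. Both genes have the same start and end in the RefSeq table, and genes of these clusters are close copies, so the probe sets cannot be counted as independent readings of 2 genes. The gene pcdhb, a symbol shared by probe sets of different gene IDs, was put in neither protocadherin class and did not pass.

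**Figure D3:**
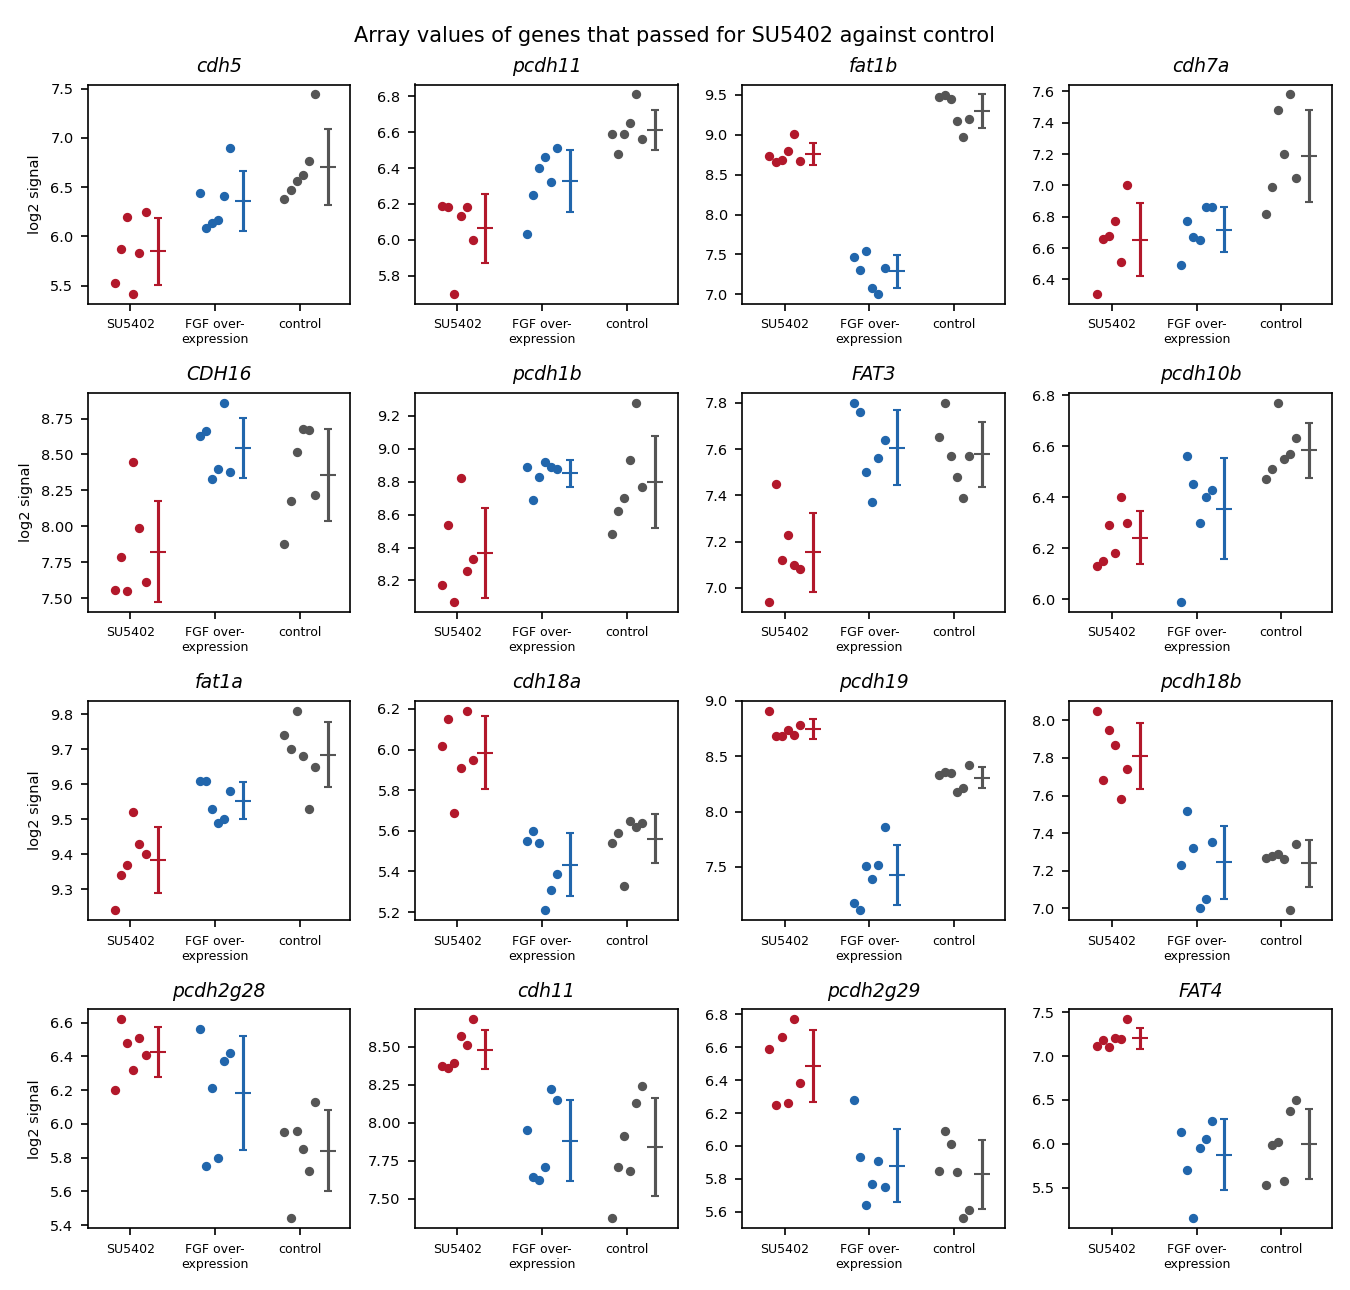
Log2 signal (vertical axes) on each array for the 16 genes that passed for SU5402 against control, ordered from the lowest to the highest change, with SU5402, FGF overexpression and control from left to right and the mean ± SD (n = 6) beside each group. SU5402 arrays of FAT4, cdh11, pcdh18b, pcdh19 and cdh18a lie above all other arrays. Those of CDH16, pcdh1b, fat1b, cdh7a and FAT3 overlap with control.

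The classical cadherins known from the primordium did not pass against control. E-cadherin (cdh1) had 10.89 to 11.40 in SU5402 (median 11.16), 11.33 to 11.47 in FGF overexpression (median 11.42) and 11.14 to 11.58 in control (median 11.34). N-cadherin (cdh2) had 11.08 to 11.35 in SU5402 (median 11.17), 10.78 to 11.09 in FGF overexpression (median 10.96) and 10.67 to 11.16 in control (median 11.03). The ranges of SU5402 and control overlapped for both genes, and neither passed. The log2 changes under SU5402 were -0.23 for cdh1 (SE 0.09, adjusted p = 0.131) and 0.21 for cdh2 (SE 0.09, adjusted p = 0.169). FGF overexpression gave 0.05 for cdh1 (adjusted p = 0.842) and -0.02 for cdh2 (adjusted p = 0.933). Without SU5402 replicate 4 cdh1 passed under SU5402 (-0.28, adjusted p = 0.0458). FGF overexpression set directly against SU5402 was higher for cdh1 (0.28, SE 0.09, adjusted p = 0.0377), a call that 9 of 20 alternative fits lost, and -0.23 for cdh2 (adjusted p = 0.0806), which passed in 3 alternative fits (adjusted p = 0.0247 to 0.0422). Skin and periderm markers, of epithelial cells that also make E-cadherin, were lower under SU5402 in 8 of 14 cases and higher in none. Of all named genes 8.13% were lower there. The mean of these markers was 8.72 to 9.19 in SU5402, 9.64 to 9.79 in FGF overexpression and 9.45 to 10.03 in control. Their part in the values of cdh1 was not tested.

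Cadherins known from muscle, kidney and hair cells showed no call against control that held in every alternative fit. M-cadherin (cdh15) varied widely, at 5.83 to 7.60 in SU5402 (median 6.54), 5.63 to 6.53 in FGF overexpression (median 5.92) and 5.70 to 7.22 in control (median 6.60), with overlap throughout. Its log2 change was 0.08 under SU5402 (adjusted p = 0.911) and -0.54 under FGF overexpression (adjusted p = 0.356). Directly against SU5402, FGF overexpression was at -0.62 (adjusted p = 0.141). With a replicate block both of these FGF overexpression changes passed (adjusted p = 0.0484 and 0.00786). Of 16 skeletal muscle markers none was called in any comparison. Of all named genes, 14.7% were called for SU5402, 5.89% for FGF overexpression and 24.4% for FGF overexpression against SU5402. The pronephros cadherin gene cdh17 was bright, with means of 11.51 in SU5402, 11.18 in FGF overexpression and 11.44 in control, and did not pass. CDH16, named for a kidney cadherin of mammals, fell under SU5402 (-0.53, SE 0.16, adjusted p = 0.0487), with 7.55 to 8.45 in SU5402 (median 7.70), 8.33 to 8.86 in FGF overexpression (median 8.52) and 7.88 to 8.68 in control (median 8.37). SU5402 and control overlapped, and a fit of these 2 groups alone did not keep the call (adjusted p = 0.0973). Of 11 pronephros markers, a list added after the values of cdh17 were seen, none passed against control, where 14.7% and 5.89% of all named genes did. R-cadherin (cdh4) was dim, at 4.89 to 5.20 in SU5402 (median 5.08), 4.83 to 5.12 in FGF overexpression (median 5.02) and 4.76 to 5.32 in control (median 4.99). The tip link cadherin genes of hair cells were also near the median or below it. For cdh23 the signals were 5.40 to 5.69 in SU5402 (median 5.46), 5.40 to 5.56 in FGF overexpression (median 5.48) and 5.44 to 5.80 in control (median 5.50). For pcdh15a they were 5.45 to 6.12 in SU5402 (median 5.88), 5.58 to 6.27 in FGF overexpression (median 5.91) and 5.98 to 6.27 in control (median 6.09). Neither passed in any comparison, and neither did cdh13, which lacks a cytoplasmic tail, nor cdh31.

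Zebrafish keep many genes as duplicates named a and b, and 9 such pairs were measured. The change of the b gene minus that of the a gene was tested for each pair with a two-sided exact permutation test over the 6 and 6 arrays, whose smallest possible p is 0.00216, and adjusted over the 18 comparisons with control. Under FGF overexpression, fat1b fell further than fat1a by 1.87 on the log2 scale (SE 0.09) and celsr1b further than celsr1a by 1.56 (SE 0.06). In both pairs p was the smallest possible (adjusted p = 0.00974, exact permutation test). The a genes themselves were at -0.13 and -0.07. Under SU5402 pcdh18b was higher relative to pcdh18a by 0.86 (SE 0.13, adjusted p = 0.00974, exact permutation test), and pcdh7b relative to pcdh7a by 0.58 (SE 0.13, adjusted p = 0.0156, exact permutation test). The cdh10 pair passed in both treatments as well, with cdh10b lower, but cdh10a averaged 4.51 to 4.70 in the 3 groups, below the median of all probe sets, so no size is given and the pair is not read as a difference between the genes. For fat1 the difference under SU5402 was -0.23 (SE 0.08, adjusted p = 0.0501, exact permutation test). The pairs of cdh24, pcdh1, pcdh10 and pcdh15 did not pass in either treatment. Of these genes cdh24a, cdh24b and pcdh15b averaged below the median of all probe sets (4.84, 5.60 and 5.71). Just above it lay pcdh1a, pcdh10a and pcdh15a (5.94, 5.98 and 5.95). The lack of a call is therefore not read as no difference in these pairs. Directly between FGF overexpression and SU5402, the b gene was lower relative to the a gene in the fat1, celsr1, pcdh18 and pcdh7 pairs (adjusted p = 0.00390 each, exact permutation test). Here p was again the smallest possible, 0.00216, and was adjusted over the 9 pairs of this comparison alone. These adjusted values are therefore not comparable with those against control.

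**Figure D4:**
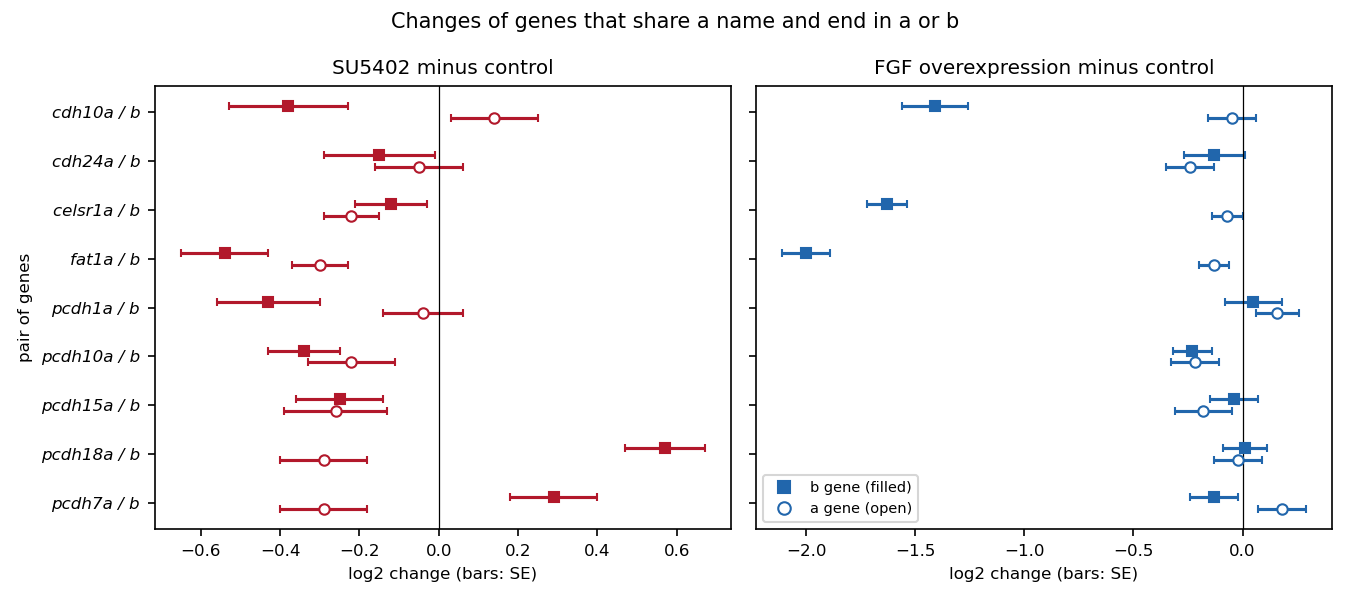
Log2 change against control (horizontal axes, bars are SE) of the b gene (filled squares) and the a gene (open circles) of each of the 9 pairs, for SU5402 on the left and FGF overexpression on the right; the 2 panels have different scales. Under FGF overexpression fat1b and celsr1b lie at -2.00 and -1.63, while their a genes lie near 0. The genes cdh10a, cdh24a, cdh24b and pcdh15b averaged below the median of all probe sets.

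FGF overexpression set directly against SU5402 gave 8 higher and 12 lower members, 24.7% of the 81 against 24.4% of all named genes (12.5% higher and 11.9% lower). Of the 33 brighter members 18 were called, or 54.5%, against 31.6% of brighter named genes, and pcdh2g29 was again among the 18. For 12 of the 81 (14.8%) the groups did not overlap, against 16.6% of named genes. The lowest were pcdh12 (-1.61), celsr1b (-1.51), fat1b (-1.47), FAT4 (a change of at least this size, -1.33) and pcdh19 (-1.32). For FAT4 and pcdh18b the SU5402 arrays stood above both other groups, and for pcdh12 and celsr1b the FGF overexpression arrays stood below both. The highest was CDH16 (0.72, SE 0.16, adjusted p = 0.00437), followed by cdh6 and pcdh17 (0.61 each). FAT3 (0.45) and pcdh1b (0.48) were also higher. The call for pcdh2ab3 as higher (adjusted p = 0.0425) has no size, since both groups averaged below the median of all probe sets. It was lost in 12 of 19 alternative fits, 9 of which left out a single array.

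Some partners through which cadherins act passed where E-cadherin and N-cadherin did not; the differences between these genes were not tested. Of 18 measured catenin and adherens junction genes, 3 rose and 3 fell under SU5402 (median log2 change -0.07, against 0.01 over all named genes). There 14.7% of all named genes were called. Under FGF overexpression, where 5.89% were called, 2 rose (median 0.01, against -0.01). Under SU5402, ctnnd2a, which encodes a catenin that binds the cadherin tail next to the membrane, rose by at least 1.78 (SE 0.12, adjusted p = 5.63e-09), with group means of 7.03 in SU5402, 4.96 in FGF overexpression and 5.26 in control. The beta-catenin gene ctnnb2 rose by 0.64 (adjusted p = 0.000445), and the plakoglobin gene jupa fell by 0.47 (adjusted p = 0.000161). The gene for the adhesion molecule Nectin1b, nectin1b, went opposite ways: it fell by 1.00 under SU5402 (SE 0.14, adjusted p = 4.84e-05) and rose by 1.69 under FGF overexpression (SE 0.14, adjusted p = 2.27e-07), with means of 7.18 in SU5402, 9.88 in FGF overexpression and 8.18 in control. A second plakoglobin gene, jupb, rose by 0.64 under FGF overexpression (adjusted p = 0.00144), and nectin3b fell by 0.37 under SU5402 (adjusted p = 0.00722). The alpha-catenin gene ctnna1 and the p120-catenin gene ctnnd1 passed in neither treatment against control.

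Planar polarity partners of the Fat, Dachsous and Celsr proteins also moved in both directions. Under SU5402 5 of 20 rose and 2 fell (median log2 change 0.05), and under FGF overexpression 2 rose and 2 fell (median -0.05). Calls over the named genes as a whole reached 14.7% for SU5402 and 5.89% for FGF overexpression. The core polarity gene vangl1 fell under both treatments, by 1.39 under FGF overexpression (SE 0.11, adjusted p = 1.13e-07) and by 0.46 under SU5402 (SE 0.11, adjusted p = 0.00807). Its means were 6.96 in FGF overexpression, 7.90 in SU5402 and 8.36 in control. Its close relative vangl2 was at 0.05 under FGF overexpression (adjusted p = 0.78). The means of vangl2, 13.21 in FGF overexpression and 13.17 in control, were near the highest signal on any array, 13.88. Its lack of a call is therefore not read as no change, and the difference between vangl1 and vangl2 was not tested. The Dishevelled gene dvl3a rose under FGF overexpression (0.69, adjusted p = 0.000306). The genes ankrd6b, which encodes Diversin, and scrib passed in both treatments with opposite signs: ankrd6b was at 0.39 under SU5402 (adjusted p = 0.00776) and -0.48 under FGF overexpression (adjusted p = 0.00295). The values of scrib were -0.30 under SU5402 (adjusted p = 0.0276) and 0.38 under FGF overexpression (adjusted p = 0.0114). Under SU5402, prickle1a (0.97, adjusted p = 1.59e-05), prickle2b (0.53, adjusted p = 0.00633) and fjx1 (0.90, adjusted p = 0.0198) rose. The product of fjx1 corresponds to Four-jointed in Drosophila, a kinase that modifies Fat and Dachsous.

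**Figure D5:**
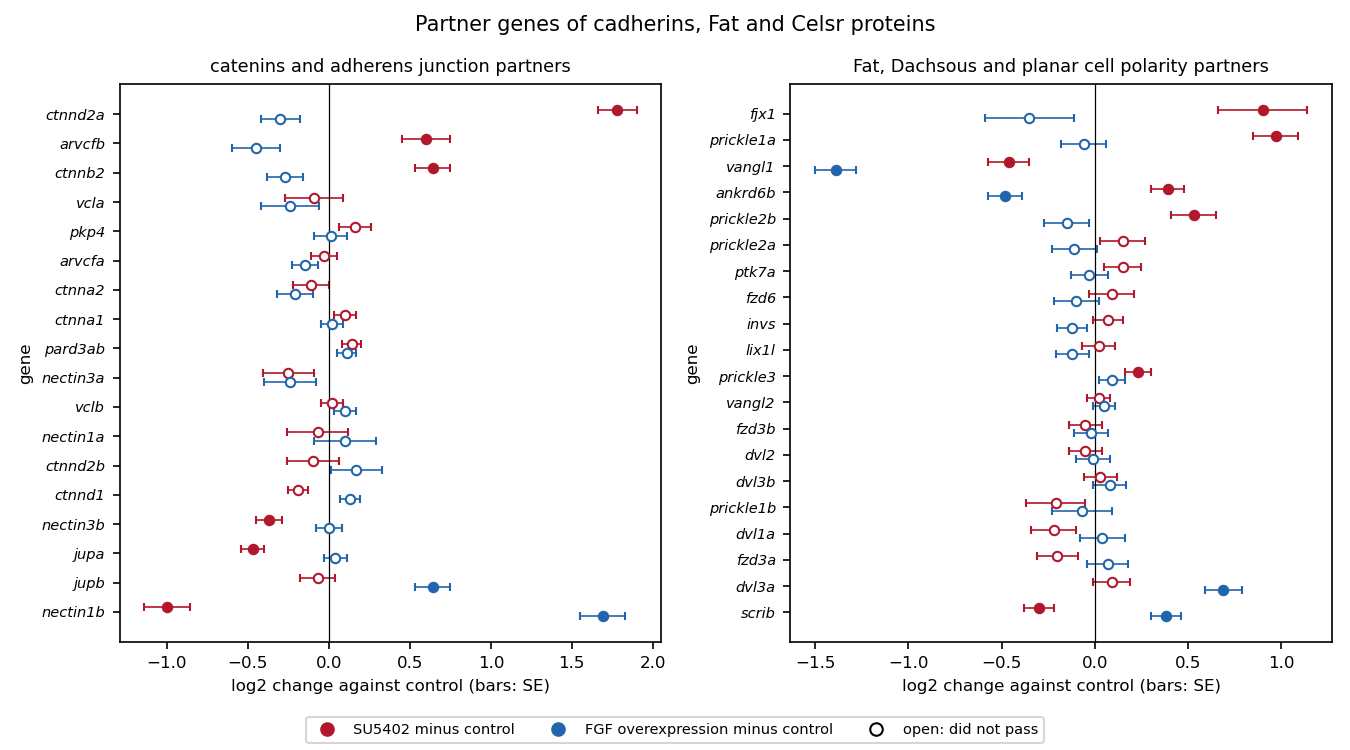
Log2 change against control (horizontal axes, bars are SE) of 18 catenin and adherens junction genes (left) and 20 partners of Fat, Dachsous and planar cell polarity (right), for SU5402 (red) and FGF overexpression (blue); filled points passed the test. The points of nectin1b lie on opposite sides of 0, at 1.69 for FGF overexpression, and ctnnd2a lies farthest to the right for SU5402, at 1.78.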

How the data were processed

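The deposited table holds log2 signals, 1 per probe set and array, made with Affymetrix Power Tools and RMA per the submitters' processing notes. Versions of the tools and the array's genome build: not given in the sources used here. RNA was extracted and made into biotinylated cDNA with commercial kits, per the labels' protocols; the isolation of the cells is not described in them. Values were used as deposited, without a filter. A mean per group was fitted over all 18 arrays (R 4.3.3, limma 3.58.1), which gave the 3 contrasts, adjusted over 75212 probe sets, and the code was tested on simulated data. The number of arrays limits the precision. Of the 81 genes, 77 matched RefSeq by gene ID. They had 99 probe sets, and 8 further probe sets with several symbols were left out. The members, lists and classes were chosen with earlier results of these data known. All members are named, with array ranges for those called against control and 10 fixed genes, and, from each partner list, up to 5 called genes by smallest p. The paralogue pairs, the neighbours and the pronephros markers were added after values were seen. The alternatives tried are given with their effect in the closing section. Promoter and protein sequences were not used here.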

Additional observations from a re-analysis of the deposited data

Results flagged for a closer look

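The spread within groups was checked for the 28 genes whose array ranges are given, in each of the 3 groups, which makes 84 checks. In 6 of them 1 array lay far from the other 5, by a gap to its nearest neighbour above Dixon's 95% critical share of the group's range. Chance alone marks about 1 in 20 such groups. Control replicate 6 was highest for cdh5 at 7.44, with the next array at 6.77. Control replicate 5 was lowest for pcdh18b at 6.99, with the next at 7.26, and control replicate 3 was lowest for cdh18a at 5.33, with the next at 5.54. In SU5402, replicate 6 was highest for FAT4 at 7.42 (next 7.21), replicate 5 for fat1b at 9.01 (next 8.79) and replicate 1 for cdh2 at 11.35 (next 11.18). The same replicate number was also highest in the other groups for cdh5, FAT4 and cdh2. For pcdh18b and cdh18a it was also lowest in SU5402 but not in FGF overexpression. For fat1b it was instead lowest in the other groups. The calls for cdh5, pcdh18b, cdh18a, FAT4 and fat1b under SU5402 held when any single SU5402 or control array was left out.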

How the results depend on the processing

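All 7 calls for FGF overexpression against control held in every alternative fit in which they were tried. So did 13 of 16 for SU5402 against control and 17 of 20 for FGF overexpression against SU5402. The fits used the compared arrays alone, array weights, a trended and robust variance, shifted array medians, or brighter probe sets alone. Others used repeated probe sets once, the mean of a gene's probe sets, a replicate block, or left out each array of the compared groups in turn. The brighter probe sets left out the dim cdh18a, so its call was not tried there. No called change reversed. The exceptions under SU5402 were CDH16 (lost without any of 10 arrays, adjusted p up to 0.111), pcdh1b (8 arrays, up to 0.116 with the compared arrays alone) and pcdh10b (without control replicate 3). Leaving out 1 array of the compared groups gave 7 to 8 higher and 6 to 11 lower members for SU5402 against control. It gave 1 to 2 and 6 to 7 for FGF overexpression against control, and 5 to 8 and 12 to 12 for FGF overexpression against SU5402. The 5 came without SU5402 replicate 2, and the 2 without FGF overexpression replicate 6, where pcdh2ab3 joined (adjusted p = 0.0371).

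Groups share replicate numbers, and the deviations of samples with the same number correlated positively in every pair. The correlations were 0.01 to 0.23, over 0.1 in 2, 3 and 3 of 6 pairs per comparison. Between SU5402 and control, the best match was the sample of the same number for 2 of 6 samples. In each comparison with FGF overexpression it was so for 4 of 6, where numbers without meaning would give about 1 of 6 on average. The labels do not say what a number stands for, so the main fit has no block and the block is an alternative. With the replicate block, 7 and 9 members were higher and lower for SU5402, 1 and 8 for FGF overexpression, and 8 and 14 for FGF overexpression against SU5402. Under that block cdh15 passed for FGF overexpression against control (-0.54, adjusted p = 0.0484) and against SU5402 (-0.62, adjusted p = 0.00786), and cdh2 and cdh5 passed for FGF overexpression against SU5402 (adjusted p = 0.0247 and 0.0103). These results for cdh15, cdh2 and cdh5 therefore depend on the fit, and the lack of a call in the main fit is not read as no change. The genes near the median of all probe sets are limited by signal over background.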

Other observations

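Of 20 transcription factors known to set E-cadherin levels in other tissues, 1 rose and 4 fell under SU5402 (median log2 change -0.30). There 14.7% of all named genes were called. Under FGF overexpression, where 5.89% were called, 1 rose and 1 fell (median -0.24). The Snail gene snai1b, a repressor of E-cadherin, rose by 1.14 under SU5402 (SE 0.22, adjusted p = 0.00178). The Grainyhead-like genes, whose mammalian counterpart Grhl2 activates E-cadherin, fell: grhl2a by 2.49 (SE 0.11, adjusted p = 3.36e-11), grhl3 by at least 1.77 (adjusted p = 1.03e-06) and grhl2b by 0.97 (adjusted p = 3.62e-05), and ovol1a fell by 0.46 (adjusted p = 0.00486). Under FGF overexpression grhl2a rose by 0.69 (adjusted p = 0.000621) and grhl3 fell by 0.77 (adjusted p = 0.0126). Grainyhead-like and Ovol factors are also made in skin, whose markers were lower on the SU5402 arrays, and their part in these values was not tested.

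Of 14 measured partners of the tip link cadherins in hair cells, none rose and 2 fell under SU5402, where 14.7% of all named genes were called, and 1 rose and 1 fell under FGF overexpression, where 5.89% were. Set directly against SU5402, FGF overexpression was higher for 4 of the 14 and lower for 1, with 24.4% of named genes called. Under SU5402 lhfpl5b fell (-0.54, adjusted p = 0.019), and under FGF overexpression myo7ab rose (at least 1.40, SE 0.14, adjusted p = 2.76e-06). The call of cib2 under SU5402 (adjusted p = 0.00467) and that of cib3 under FGF overexpression (adjusted p = 0.0351), both lower, have no size, since both groups compared averaged below the median of all probe sets. Of 13 hair cell markers, 4 fell and 1 rose under SU5402, and 1 fell and 2 rose under FGF overexpression. Among 9 measured desmosomal and other cadherin superfamily genes outside the naming rule, the desmoglein gene dsg2.1 fell under SU5402 (-0.54, SE 0.09, adjusted p = 0.00053) and none passed under FGF overexpression, where changes ranged from -0.18 to 0.06.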
